A study of Mus musculus with 28 samples.

Results

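Ribosome footprints of MN1 cells were compared with those of primary cortical neurons from mouse. Footprints are the short mRNA fragments that a translating ribosome shields from RNase, so their number per gene depends on how much of its mRNA was held by ribosomes at lysis. All 14 footprint libraries of the series, which holds 28 libraries, entered the comparison, 6 from MN1 cells and 8 from neurons, and the genotypes were pooled within each cell type. MN1 is a clonal line made by fusing mouse spinal motor neurons with mouse neuroblastoma cells. Plasmids were introduced transiently and expressed GFP (2 libraries), wild-type human TDP-43 (hTDP-43, 2 libraries) or its disease-linked A315T form (hTDP-43 A315T, 2 libraries). The neurons were prepared from cortices of embryonic day 16 mice and kept for 14 days in vitro, with 0.5 µM cytosine arabinoside, which stops dividing cells, added on day 4. They came from non-transgenic animals (2 libraries) or from animals carrying human TDP-43 without (3 libraries) or with (3 libraries) the A315T change, driven by the prion protein promoter. MN1 cells received 100 µg/mL cycloheximide, which stalls elongating ribosomes, for 3 min before lysis and neurons did not. The cell type and the drug before lysis therefore cannot be told apart in any value below.

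A neuron that has left the cell cycle and a dividing tumour-derived cell translate different sets of genes. Dividing cells must copy DNA, assemble spindles and make new ribosomes each cycle, whereas mature neurons maintain long processes, synapses and excitable membranes and keep the cell cycle genes silent. MN1 cells also carry the history of their parents, since neuroblastoma arises from the sympathoadrenal branch of the neural crest, which uses transcription factors that the cortex does not.

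MN1 libraries held 332370 to 1219222 reads assigned to genes and neuron libraries 166064 to 2528820. The shallowest, neuron hTDP-43 replicate 3, stood apart from the other neuron libraries on the second principal component, which carried 2.56% of the variance, at -69.95 against 2.62 to 16.9. Levels of a gene are given as CPM, its reads in a library after division by the library's total and scaling between libraries with edgeR. Protein-coding genes took 90.27% to 93.52% of the reads in MN1 cells and 86.73% to 95.55% in neurons. The 6 genes that exceeded 1% of the reads in some library together held 11.2% to 16.6% of MN1 reads and 6.71% to 15.4% of neuron reads. A count of 3 pooled over a cell type corresponds to 0.667 CPM in MN1 cells and 0.346 CPM in neurons, and serves as the floor from which the fold of a gene without any read in that cell type was computed, covering counting error only.

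The cell types differed at most genes tested. Of 9518 genes with enough reads, 7991 (84.0%) passed an adjusted p of 0.05 in edgeR's quasi-likelihood test. Of these, 3757 (39.5% of the genes tested) were higher in MN1 cells and 4234 (44.5%) in neurons. A test against a 2-fold difference called 5031 genes (52.9%), with 2139 (22.5%) higher in MN1 cells and 2892 (30.4%) in neurons. The values of the 6 and the 8 libraries did not overlap at 5917 genes (62.2%). Changes below are log2 fold changes of MN1 cells over neurons unless stated otherwise, so that a positive value is higher in MN1 cells. Their median over all genes tested was -0.12. With so many genes called, a share of called members in a gene list near these percentages says little, and each list is therefore described by its counts, its median and its values.

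**Figure D1:**
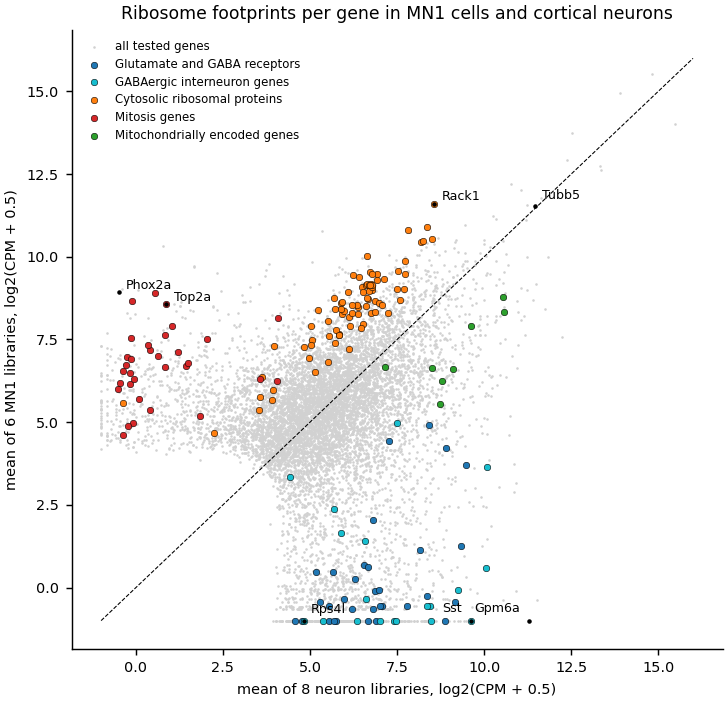
Mean footprint level of each of 9518 tested genes in 8 neuron libraries (horizontal) and 6 MN1 libraries (vertical), both as log2(CPM + 0.5), with 5 gene lists in colour and the dashed line marking equal levels. Most mitosis genes lie at the left near zero in neurons, most receptor and interneuron genes lie along the bottom near zero in MN1 cells, and ribosomal protein genes form a band above the line.

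The first principal component, computed on log2 CPM, carried 89.9% of the variance and separated the cell types without overlap. Across the tested genes, 2 MN1 libraries correlated with r of up to 0.982 and 2 neuron libraries with 0.862 to 0.983, whereas an MN1 and a neuron library correlated with only 0.105 to 0.140 (n = 9518 genes, which are not independent replicates and share the filter that admits genes present in 1 cell type). Many genes had reads in 1 cell type alone. Of 9440 tested protein-coding genes, 325 had no read in any MN1 library and 25 had none in any neuron library. Such a gene passed the filter through 1 cell type alone and could be called only toward it, so its call adds no support to a list. Genes with only a few reads in 1 cell type also passed through the other alone, and their calls add no support either. Whether the difference between the cell types depended on genotype was tested as an interaction over the 3 genotype classes. No gene passed (0.0% of 9518 genes, smallest adjusted p = 0.503 in edgeR, 190 genes at an unadjusted p below 0.05). With 2 or 3 libraries per genotype in each cell type, this does not show that the difference was the same in all genotypes, and values below are pooled over them. Libraries of a cell type with the same replicate number carry the same day and month in their labels, so they may not be independent of each other. Summed per date, 2 against 3, 9013 of 11658 genes tested were called, and 7754 of 9518 with the date as a random effect in limma-voom.

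The labelled cell types were first checked against their markers. The 9 pan-neuronal and transmitter markers summed to 7130 to 9894 CPM in neurons and to 665 to 760.3 CPM in MN1 cells, where the glutamate transporter Slc17a6 and the GABA-producing enzyme Gad2 had no read. The 5 cortical transcription factors summed to 574 to 755 CPM in neurons and to 5.20 to 15.9 CPM in MN1 cells. The 5 spinal motor neuron markers reached 54.1 to 74.9 CPM in MN1 cells and 4.98 to 24.5 CPM in neurons. Isl1 and Slc18a3 supplied most of this, while Mnx1 and Chat, which define motor neurons, averaged 0.335 and 1.51 CPM in MN1 cells, so that these defining markers were at or near the floor. The 6 sympathoadrenal markers summed to 965 to 1169 CPM in MN1 cells and to at most 9.06 CPM in neurons. Microglial markers were at or near zero in both cell types, at most 1.04 CPM in MN1 cells and 3.64 CPM in neurons. Markers of vessels and meninges were low, summing to 4.16 to 12.4 CPM in MN1 cells and 0 to 23.7 CPM in neurons.

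Transcription factors of the sympathoadrenal lineage were high in MN1 cells and nearly without reads in neurons. Phox2a, a homeodomain factor that specifies noradrenergic neurons (chromosome 7, 101818313 to 101822726, GRCm38), stood at 439 to 537 CPM with a median of 484 CPM in MN1 cells. In neurons it had 3 reads in all, in 2 of 8 libraries, and the pooled ratio of the cell types was 1513 (95% counting interval 517 to 7340). The zinc finger factor Gata2 stood at 261 to 389 CPM in MN1 cells and had 2 reads in all neuron libraries, a ratio of 1543 (426 to 12750). Hand2, a basic helix-loop-helix factor of the same lineage, ranged from 434 to 574 CPM in MN1 cells and from 0 to 2.18 CPM in neurons (log2 fold change 9.36 ± 0.21 SE, adjusted p = 1.69e-22). Of 21 genes on the sympathoadrenal and neuroblastoma list, 15 passed the filter, 11 were called higher in MN1 cells and 2 in neurons, with a median of 2.88. Th and Dbh, enzymes of catecholamine synthesis, did not pass the filter, with medians of 9.80 and 15.4 CPM in MN1 cells.

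The secretory granule proteins of this lineage were present in both cell types. Chgb ranged from 1205 to 1463 CPM in MN1 cells and from 278 to 458 CPM in neurons (1.84 ± 0.12), and Chga from 531 to 689.5 CPM and from 289 to 421 CPM (0.73 ± 0.11). The 2 members called higher in neurons were the growth cone protein Gap43, with 41.3 to 73.9 CPM in MN1 cells and 1033 to 1341 CPM in neurons (-4.40 ± 0.15), and Mycn (-0.95). On the motor neuron list only 7 of 20 genes passed the filter. Of these, 5 were higher in MN1 cells, among them the intermediate filament Prph (668 to 1038 CPM against 0 to 7.70 CPM, 7.57 ± 0.23), the nicotinic receptor subunit Chrna3 (343 to 394 CPM against 0 to 4.98 CPM, 7.30 ± 0.22) and the GDNF receptor Ret (446 to 706 CPM against 4.98 to 18.6 CPM, 5.79 ± 0.18). These 3 are also expressed by sympathetic neurons. Ache (-3.50) and Foxp1 (-2.53) were higher in neurons.

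Hox genes, which encode position along the body axis and are silent in forebrain, passed the filter at 2 of 39 members. Hoxc9 (25.6 to 61.8 CPM) and Hoxc10 (27.2 to 38.8 CPM) had reads in every MN1 library and none in any neuron library, which makes them at least 113-fold and at least 101-fold higher in MN1 cells. Both passed the filter through MN1 cells alone and could be called in no other direction.

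Neurons carried genes listed for GABAergic interneurons and factors listed for cortical projection neurons. Among 22 genes of GABAergic interneurons, 19 passed the filter and 19 were higher in neurons, with a median of -9.14, or -7.43 when the 8 members without an MN1 read were set at the floor. Those 8 passed the filter through neurons alone and could be called in no other direction. Members with few MN1 reads, such as Reln below, also passed through neurons alone, so the count adds no support to the list. Sst, the interneuron peptide somatostatin (chromosome 16, 23889581 to 23890844), ranged from 463 to 1246 CPM with a median of 713 CPM in neurons and had no MN1 read, so it was at least 1121-fold higher in neurons. Gad2 ranged from 239 to 535 CPM and was at least 561-fold higher. Reln, an extracellular guidance protein, reached 688 to 1643 CPM against at most 1.76 CPM in MN1 cells (-9.84 ± 0.32). On the list of cortical projection neuron factors, 25 of 26 genes passed the filter, 24 were higher in neurons and none in MN1 cells, with a median of -5.52. Mef2c, an activity-regulated factor, ranged from 534 to 942 CPM in neurons and had 2 MN1 reads. Bcl11b, which marks deep-layer neurons that project below the cortex, ranged from 110 to 186 CPM and had no MN1 read, at least 221-fold higher. Nfib was the member that did not pass (-0.13).

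Genes of astrocytes were also found in the neuron libraries. Of 18 astrocyte markers 13 passed the filter, 11 were higher in neurons (median -6.38, or -5.34 with members at the floor) and 2, Sox9 (2.13) and Fgfr3 (1.16, and 0.90 with an adjusted p of 0.0686 in control cultures alone), in MN1 cells. The lipid carrier Apoe ranged from 275 to 631 CPM in neurons and from 0 to 7.12 CPM in MN1 cells, and the glutamate transporter Slc1a2 from 199 to 304 CPM against 3 MN1 reads in all. The astrocyte filament Gfap averaged 4.34 CPM. Oligodendrocyte genes were scarce, with 2 of 16 past the filter, of which Olig1 was higher in neurons (6.59 to 30.9 CPM against 0 to 2.39 CPM) and Cnp did not pass the test (-0.53 ± 0.25, adjusted p = 0.0512). Of 15 microglial and 16 vascular or meningeal markers 1 each passed the filter, and the latter was Igfbp2 (-3.28, higher in neurons). Phox2a, Hand2, Hoxc10, Reln, Slc1a2, Syp, Gria2, Ccna2, Ube2c, Top2a, Cdk4, Rack1, Ptbp1, Eif4a2, Tardbp, Mid1ip1 and Pth1r are among the named genes whose exons overlap another gene, and reads counted without strand cannot be assigned to an antisense partner. In these bulk libraries, fewer cells of a type and fewer footprints per cell cannot be told apart.

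**Figure D2:**
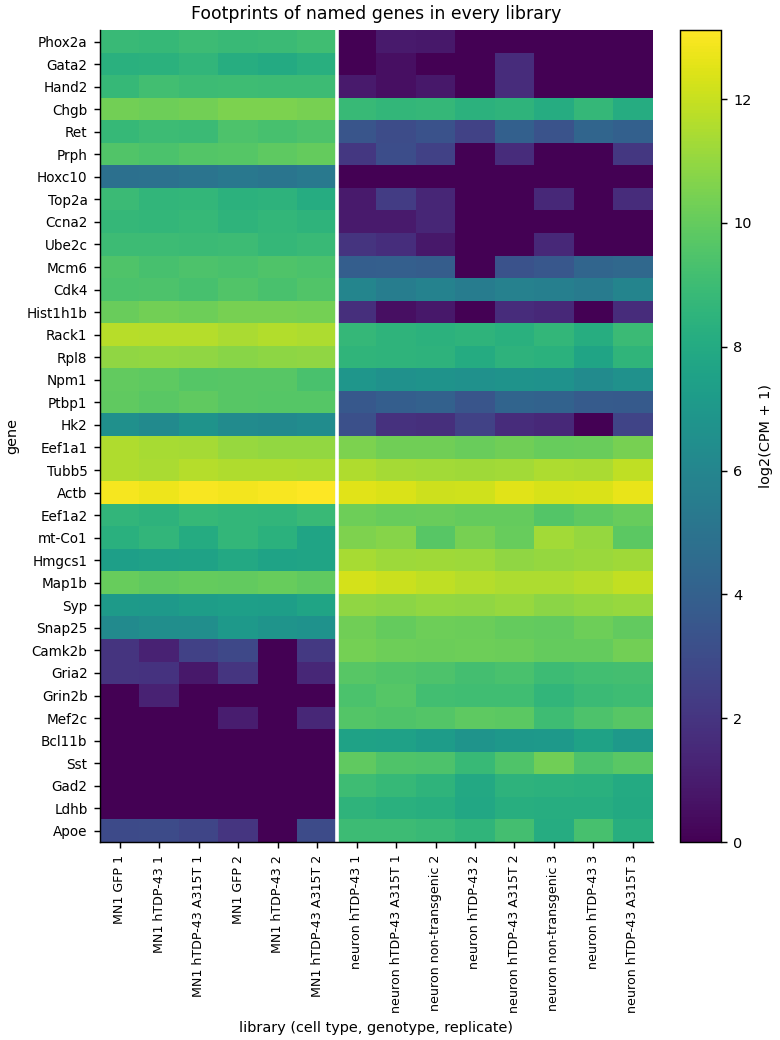
Footprint level of 36 genes (rows) in the 6 MN1 and 8 neuron libraries (columns), coloured by log2(CPM + 1), with a white line between the cell types. Sympathoadrenal, cell cycle and ribosomal genes are brighter on the left than on the right, synaptic and interneuron genes are the reverse, and Tubb5 and Actb are bright in all 14 libraries.

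The machinery of synapses was higher in neurons. Of 30 genes for synaptic vesicles and transmitter release 30 passed the filter and 29 were higher in neurons, with a median of -4.39. The exception was Vamp1 (0.96), a vesicle SNARE abundant in spinal cord and brainstem, which did not pass in hTDP-43 A315T cultures alone (0.79, adjusted p = 0.149). MN1 cells nonetheless translated the abundant members at a measurable level. Syp, a membrane protein of synaptic vesicles, ranged from 134 to 200 CPM in MN1 cells and from 1801 to 2193 CPM in neurons (-3.65 ± 0.13). The fusion protein Snap25 ranged from 77.8 to 136 CPM against 980 to 1241 CPM (-3.46 ± 0.14). Other members had no MN1 read, such as the active zone scaffold Pclo (234 to 455 CPM in neurons, at least 482-fold higher) and the Rab3 effector Rph3a (198 to 366 CPM, at least 433-fold higher).

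On the receiving side of the synapse 22 of 25 scaffold and CaMKII genes passed the filter and 22 were higher in neurons (median -5.42). The kinase Camk2b ranged from 1046 to 1325 CPM in neurons and from 0 to 6.24 CPM in MN1 cells (-8.28 ± 0.21), and Camk2a from 479 to 868 CPM and from 2.78 to 7.28 CPM (-7.02 ± 0.20). Of 34 receptors for glutamate and GABA 32 passed the filter and 32 were higher in neurons, with a median of -7.75 (-7.01 with 8 members at the floor). Those 8 had no MN1 read and could be called in no other direction. Members with few MN1 reads, such as Gria2 and Grin2b below, also passed through neurons alone, so the count adds no support to the list. The AMPA receptor subunit Gria1 ranged from 409 to 616 CPM in neurons without an MN1 read, at least 709.9-fold higher, and Gria2 from 516 to 822 CPM against 0 to 3.12 CPM (-8.22 ± 0.23). Grin2b, an NMDA receptor subunit, ranged from 401 to 816 CPM against 1 MN1 read. The metabotropic GABA receptor subunit Gabbr1 ranged from 598 to 780 CPM in neurons and from 3.98 to 17.6 CPM in MN1 cells (-5.91 ± 0.20).

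Voltage-gated channels moved the same way. Of 43 listed genes 40 passed the filter and 40 were higher in neurons (median -5.72, or -5.63 with 4 members at the floor). The sodium channel Scn2a, which carries the upstroke of the action potential, ranged from 258 to 328 CPM in neurons and from 0 to 5.70 CPM in MN1 cells (-6.89 ± 0.22). The calcium channel Cacna1e ranged from 230 to 460 CPM against 1.76 to 11.1 CPM (-6.10 ± 0.25), and the auxiliary subunit Cacna2d3 from 130 to 228 CPM without an MN1 read.

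The neuronal cytoskeleton was shared to a greater degree. All 34 genes listed passed the filter, and 32 were higher in neurons (median -3.76). Microtubule proteins with high levels in both cell types showed the smaller differences. Map1b ranged from 968 to 1077 CPM in MN1 cells and from 2855 to 4900 CPM in neurons (-1.83 ± 0.14), Tubb3 from 476 to 566 CPM and from 1729 to 3068 CPM (-2.25 ± 0.13), and Dpysl2, a tubulin-binding protein of growth cones, from 241 to 325 CPM and from 2104 to 2737 CPM (-2.95 ± 0.12). Dcx, a microtubule protein of migrating neurons, had 1 MN1 read against 167 to 311 CPM in neurons. The exceptions were Prph (above) and Nefh (3.00), intermediate filaments that are abundant in motor and peripheral neurons.

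The cell cycle separated the cell types in the opposite direction. All 32 mitosis genes passed the filter, were higher in MN1 cells and exceeded the 2-fold threshold, with a median of 6.74. They took 0.421% to 0.549% of the reads in MN1 cells and 0.00573% to 0.00828% in neurons. Members near zero in neurons, such as those named below, passed the filter through MN1 cells alone. They could be called only toward MN1 cells, so the count of calls adds no support to the list. Top2a, which untangles replicated chromosomes (chromosome 11, 98992943 to 99024189), ranged from 275 to 487 CPM with a median of 370 CPM in MN1 cells and from 0 to 4.08 CPM in neurons (7.46 ± 0.23, adjusted p = 2.14e-20). The cyclin Ccna2 ranged from 368 to 436 CPM against 0 to 1.61 CPM (8.81 ± 0.20), and Ube2c, a ubiquitin-conjugating enzyme of the anaphase-promoting complex, from 422 to 502 CPM against 0 to 2.85 CPM (8.09 ± 0.21). Ccnb1, the cyclin of mitotic entry, ranged from 125 to 176 CPM against 2 reads in all neuron libraries, a ratio of 698.5 (193 to 5778). Cytosine arabinoside was given to neurons only, so its part and that of the cell type cannot be told apart.

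Because these genes moved together, their promoters were read for the cell cycle homology region, TTTGAA, an element known from promoters of genes expressed in G2 and mitosis. The window spans 250 bases before to 50 bases after the RefSeq gene start on GRCm38.p6, and both strands were searched. Of the 32 mitosis genes 27 had a promoter entry, and 22 of these (81.5%) held the element. It was present in 20.2% of 27025 genes with an entry and in 13.1% of 7451 tested genes with one. CCAAT, the box bound by NF-Y, was present in 77.8% of the mitosis promoters and 41.1% of all, and both elements together in 66.7% and 7.97%. Among tested genes with an entry, CCAAT was present in 42.9% and both elements in 5.34%. Of 29 replication genes 17.2% held TTTGAA, and 20.7% held the E2F motif TTTCCCGC. The E2F motif was present in 1.24% of all genes, in 2.43% of tested genes and in none of the 27 mitosis genes. A match of letters is a description of the sequence and not of binding. The following stretches of 30 bases, read in the direction of transcription, show the element in capitals, as TTTGAA or as its reverse complement TTCAAA, in 5 of these genes and with its neighbourhood. They are Cdk1 (chr10:69352966-69352995, minus strand), Ccnb2 (chr9:70421704-70421733, minus), Ube2c (chr2:164769888-164769917, plus), Top2a (chr11:99024195-99024224, minus) and Cdc20 (chr4:118437344-118437373, minus). In Cdk1 the CCAAT box stands 5′ of the element on the opposite strand, as attgg, and in Cdc20 it follows the element as ccaat.
Cdk1: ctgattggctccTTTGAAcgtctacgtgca
Ccnb2: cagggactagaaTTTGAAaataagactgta
Ube2c: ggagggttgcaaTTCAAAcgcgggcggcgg
Top2a: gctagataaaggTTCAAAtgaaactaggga
Cdc20: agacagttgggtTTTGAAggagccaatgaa

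DNA replication and the G1/S transition followed the same direction. Of 37 genes 35 passed the filter, 34 were higher in MN1 cells and 1 in neurons, with a median of 4.70. The helicase subunit Mcm6 ranged from 631 to 733 CPM in MN1 cells and from 0 to 20.9 CPM in neurons (5.61 ± 0.16), and the kinase Cdk4 from 638 to 756 CPM against 43.3 to 61.4 CPM (3.70 ± 0.11). The activator E2f2 had 38.9 to 60.0 CPM in MN1 cells and no neuron read, at least 159.5-fold higher. The gene higher in neurons was Ccnd2, a D-type cyclin, with 138 to 297 CPM against 0 to 7.16 CPM (-5.64 ± 0.24). Mcm7 overlapped between the cell types, at 341 to 592 CPM in MN1 cells and 36.3 to 667 CPM in neurons (1.30 ± 0.39, and not past the threshold when libraries were summed per date), and its exons overlap those of other genes, whose reads cannot be told from its own without strand.

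Replication-dependent histones, which are made in S phase, passed the filter at 46 of 65 genes, and 46 were higher in MN1 cells (median 4.47). They took 1.41% to 1.85% of MN1 reads and 0.0749% to 0.123% of neuron reads. The linker histone Hist1h1b ranged from 1104 to 1385 CPM in MN1 cells and from 0 to 2.38 CPM in neurons (9.69 ± 0.20). Levels of single histone genes are uncertain because near-identical copies share sequence. Genes of cell cycle exit gave a mixed picture, with 11 of 14 past the filter, 4 higher in MN1 cells and 4 in neurons (median 0.23, a sign that turned when single libraries were left out). Cdkn2a, which encodes p16 and p19ARF, inhibitors of cell cycle entry, ranged from 131 to 168 CPM in MN1 cells and from 0 to 5.46 CPM in neurons (5.24 ± 0.19). Cdkn2d, an inhibitor found in mature neurons, was higher in neurons (-1.08 ± 0.16), and Cdkn1b did not pass (0.23 ± 0.11, adjusted p = 0.0655).

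**Figure D3:**
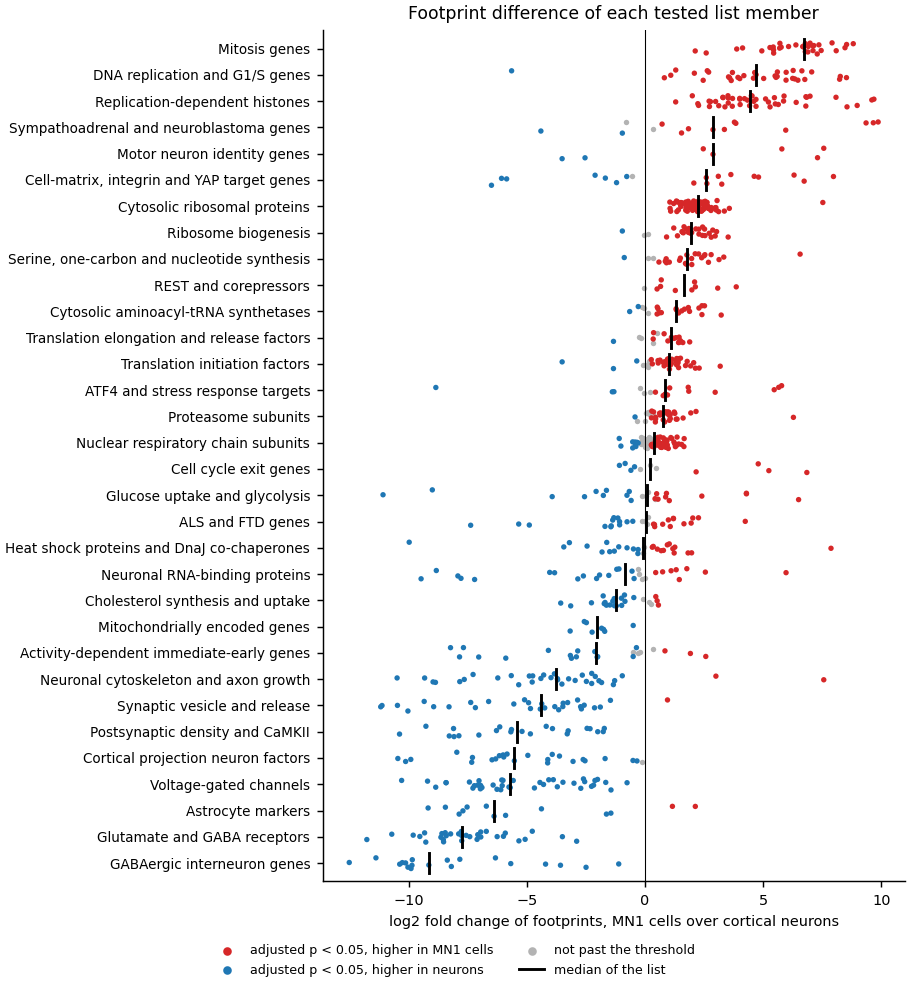
Log2 fold change of MN1 cells over neurons for each tested member of 32 gene lists with 5 or more tested members, ordered by their medians (black bars). Red and blue points passed an adjusted p of 0.05 toward MN1 cells and neurons, and grey points did not, and lists range from medians of -9.14 for interneuron genes to 6.74 for mitosis genes.

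The protein synthesis machinery was higher in MN1 cells. Of 84 genes for cytosolic ribosomal proteins 82 passed the filter and 82 were called higher in MN1 cells, 79 of them over 2-fold, with changes of 1.06 to 7.53 and a median of 2.23. Together they took 4.06% to 4.63% of MN1 reads and 0.644% to 0.853% of neuron reads. Rack1, a signalling scaffold on the small subunit, ranged from 2771 to 3333 CPM with a median of 3168 CPM in MN1 cells and from 291 to 486 CPM with a median of 371 CPM in neurons (3.02 ± 0.12). Rps21 ranged from 1652 to 1871 CPM against 130 to 266 CPM (2.97 ± 0.12). Rpl39l, a ribosomal protein copy known from testis and tumour cells, had 35.3 to 55.4 CPM in MN1 cells and 1 read in neurons, a ratio of 469 (83.4 to 18590). Many ribosomal protein genes have processed pseudogenes, so that their unique reads undercount them by an unknown amount. In total mRNA the same list was also higher in MN1 cells, at 82 genes with a median of 1.79.

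Genes that build ribosomes and load them followed at smaller differences. Of 28 ribosome biogenesis genes 25 were higher in MN1 cells and 1, Mycn, in neurons (median 1.95). The nucleolar proteins Npm1 (643 to 1012 CPM against 80.5 to 118 CPM, 3.03 ± 0.12) and Ncl (584 to 1024 CPM against 154 to 291 CPM, 1.92 ± 0.14) did not overlap between cell types. Of 40 initiation factors 38 passed the filter, 31 were higher in MN1 cells and 3 in neurons (median 1.02), and of 20 elongation and release factors 19 passed, with 14 and 1 (median 1.12). Eif4ebp1, the repressor that mTOR inactivates, ranged from 105 to 162 CPM against 8.56 to 25.3 CPM (3.19 ± 0.18), and the elongation factor Eif5a from 1395 to 1675 CPM against 347 to 458 CPM (1.90 ± 0.10). Those higher in neurons were Eif4a2 (-3.50 ± 0.16), Eif4g3 (-1.33), Eif5 (-0.34, which did not pass with scaling by total reads) and Eef1a2 (-1.33 ± 0.11). Of 22 cytosolic aminoacyl-tRNA synthetases 17 were higher in MN1 cells and 2, Cars (-0.64, which did not pass in hTDP-43 cultures alone, adjusted p = 0.0522) and Hars (-0.28, which did not pass with scaling by total reads), in neurons (median 1.33), with the valine enzyme Vars at 680 to 949 CPM against 49.8 to 122 CPM (3.23 ± 0.14).

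Biosynthetic supply went the same way. Of 25 genes for serine, one-carbon and nucleotide synthesis 22 were higher in MN1 cells and 1, Impdh1, in neurons (median 1.77). Phgdh, the entry enzyme of serine synthesis, ranged from 181 to 214 CPM in MN1 cells and from 10.5 to 41.7 CPM in neurons (3.34 ± 0.19), and the purine enzyme Atic from 342 to 472 CPM against 30.9 to 89.4 CPM (3.14 ± 0.18). Proteasome subunits were higher in MN1 cells at 29 of 36 tested genes (39 listed, median 0.79) and in neurons at 1. The immunoproteasome subunit Psmb8 had 27.1 to 61.1 CPM in MN1 cells and 3 reads in all in neurons, a ratio of 125 (42.1 to 610.3).

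**Figure D4:**
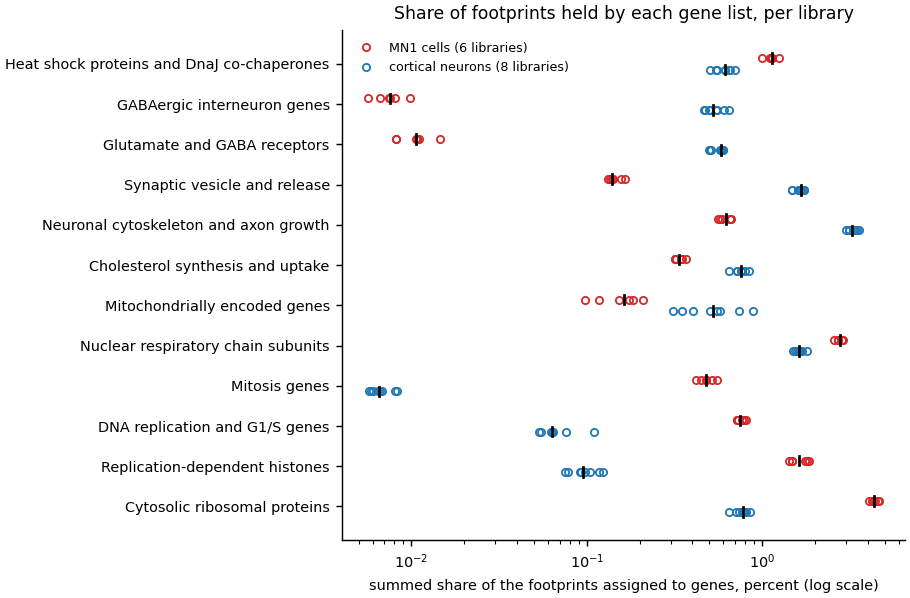
Summed share of the assigned footprints, in percent on a log axis, held by 12 gene lists in each of the 6 MN1 (red) and 8 neuron (blue) libraries, with black bars at the medians. Mitosis genes sit at 0.421% to 0.549% in MN1 cells and at most 0.00828% in neurons, and the 12 lists shown do not overlap between cell types.

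Genes of glycolysis were divided between the cell types, often by isoenzyme. Of 24 genes 10 were higher in MN1 cells and 10 in neurons, and their median was 0.09, which turned sign when some libraries were left out. Ldhb, the lactate dehydrogenase subunit of oxidative tissues (chromosome 6, 142490249 to 142507957), ranged from 234 to 370.5 CPM in neurons and had no read in any MN1 library, so it was at least 428-fold higher in neurons, whereas Ldha differed by 0.88 ± 0.12 toward MN1 cells. The hexokinase Hk2, common in growing cells, ranged from 75.0 to 105 CPM in MN1 cells and from 0 to 8.09 CPM in neurons (4.29 ± 0.23), and Hk1, the brain form, from 55.5 to 98.9 CPM and from 350 to 576 CPM (-2.55 ± 0.13). The monocarboxylate transporters split as well, with Slc16a7 at 54.9 to 105 CPM in neurons and no MN1 read, and Slc16a3 (280 to 411 CPM against 0 to 9.97 CPM) and Slc16a1 (2.41 ± 0.13) higher in MN1 cells. The glucose transporter Slc2a3, the neuronal form, was higher in neurons (-1.76 ± 0.18).

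Respiratory chain subunits are encoded in the nucleus or in mitochondria, and the lists of both were described side by side, without a test between them. Of 83 nuclear-encoded subunits 76 passed the filter, 45 were higher in MN1 cells, 9 in neurons and 22 in neither, with a median of 0.36. In total mRNA 36 of 78 tested were higher in MN1 cells and 10 in neurons (median 0.32). Of the 76 tested, 8 exceeded the 2-fold threshold, all toward MN1 cells, and the 2 named next are among these. Atp5b, the catalytic subunit of ATP synthase, ranged from 4554 to 4812 CPM in MN1 cells and from 1467 to 2035 CPM in neurons (1.43 ± 0.11). Cyc1 of complex III, with the largest change of the list, ranged from 766 to 944 CPM against 204 to 299 CPM (1.66 ± 0.10). Of 13 genes encoded in mitochondria 8 passed the filter and 8 were higher in neurons (median -2.03). The subunit mt-Co1 ranged from 199.5 to 411 CPM in MN1 cells and from 845 to 2525 CPM in neurons (-2.23 ± 0.22), and mt-Cytb from 305 to 624 CPM against 898 to 2457 CPM (-1.75 ± 0.21). The spread among neuron libraries was wide, and the mitochondrial list took 0.309% to 0.882% of their reads against 0.0981% to 0.208% in MN1 cells. The mitochondrial list was also higher in neurons in total mRNA, at 9 of 9 genes tested and with a median of -1.52. Its share of the total mRNA reads overlapped between the cell types. Mitochondrial ribosomes are not stalled by cycloheximide, and the part of the drug in the footprint difference was not tested.

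Cholesterol synthesis was higher in neurons. Of 24 genes 23 passed the filter, 17 were higher in neurons and 3, among them Ebp (0.52) and Insig1 (0.57), in MN1 cells, with a median of -1.21. Neither of these passed in control cultures alone (adjusted p = 0.267 and 0.126) or in hTDP-43 cultures alone (adjusted p = 0.422 and 0.113). Hmgcs1, which makes the precursor of mevalonate, ranged from 171 to 242 CPM in MN1 cells and from 1990 to 2673 CPM in neurons (-3.56 ± 0.13). Srebf2, a transcriptional activator of the pathway, ranged from 254 to 294 CPM against 424 to 634 CPM (-0.98 ± 0.12). MN1 cells were grown with fetal bovine serum and the neurons in a neuronal medium with a different supplement, and medium and cell type cannot be told apart.

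Stress and activity genes split by member. Of 20 targets of ATF4 and the integrated stress response 18 passed the filter, 12 were higher in MN1 cells and 3 in neurons (median 0.84). Trib3 (5.66), Gdf15 (5.47) and Nupr1 (19.4 to 38.8 CPM against 3 neuron reads) led the first group, and Vldlr (125 to 174 CPM in neurons against 1 MN1 read), Sesn2 (-1.38) and Slc7a11 (-1.31) formed the second. Asns, an asparagine synthetase, overlapped between the cell types and did not pass (0.23 ± 0.14, adjusted p = 0.13). Chaperones were divided evenly by number, with 13 of 28 tested genes higher in each cell type. Their median was -0.07, which was 0.18 with scaling by total reads. Their summed share of reads was nonetheless higher in MN1 cells, at 0.997% to 1.25% against 0.505% to 0.699% in neurons. The 3 most abundant members were all higher in MN1 cells. The small heat shock protein Hspb8 ranged from 313 to 405 CPM in MN1 cells and from 0 to 6.55 CPM in neurons (7.87 ± 0.26), and the clathrin-uncoating co-chaperone Dnajc6 from 304 to 376 CPM in neurons against 1 MN1 read. Of 24 activity-dependent immediate-early genes 22 passed the filter, and 15 were higher in neurons (median -2.07). Egr3 (60.1 to 146 CPM) and Egr4 (47.4 to 133 CPM) had 1 MN1 read each. Junb (0.85 ± 0.20), Ier2 (2.58) and Dusp6 (1.93 ± 0.13), which respond to growth factors in dividing cells too, were higher in MN1 cells. Junb overlapped between the cell types, at 149.5 to 205 CPM in MN1 cells, 149 and 164 CPM in the 2 neuron libraries of replicate 1 and 45.5 to 91.0 CPM in the other 6. In those 2 libraries the whole list took 0.241% and 0.255% of the reads, against 0.131% to 0.181% in the other neurons and 0.0998% to 0.124% in MN1 cells. Their shared date was not tested as a source of this, and without either of them Junb differed by 1.03 or 1.08.

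Genes for matrix, integrins and YAP targets passed the filter at 19 of 28, with 11 higher in MN1 cells and 7 in neurons (median 2.60, which turned to negative values when more low genes were admitted). Fibronectin, Fn1, ranged from 629 to 767 CPM in the MN1 libraries of replicate 1 and from 238 to 286 CPM in those of replicate 2, against 8.06 to 27.3 CPM in neurons (4.81 ± 0.28), the filament Vim from 429 to 667 CPM against 39.9 to 82.8 CPM (3.11 ± 0.15) and the galectin Lgals1 from 364 to 630.2 CPM against 0 to 9.97 CPM (6.74 ± 0.21). The matrix protein Tnc (9.11 to 59.8 CPM against 2 MN1 reads) and the laminin chain Lamb1 (-5.85) were higher in neurons.

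Regulators of neuronal gene expression differed as follows. Of REST, the repressor of neuronal genes outside neurons, and 9 partners, 9 of the 10 genes were higher in MN1 cells (median 1.64), with Rest itself at 2.13 and Ctdsp1 at 3.86 ± 0.27, and Kdm1a did not pass (-0.03, and 0.21 with an adjusted p of 0.0467 with scaling by total reads). Ptbp1, the splicing repressor that keeps neuronal exons silent, ranged from 797 to 978 CPM in MN1 cells and from 9.97 to 17.5 CPM in neurons (5.97 ± 0.13, adjusted p = 1.69e-22), and its neuronal counterpart Ptbp2 from 37.0 to 57.2 CPM and from 159 to 230 CPM (-2.04 ± 0.12). Among 29 neuronal RNA-binding proteins 28 passed the filter, 16 were higher in neurons and 8 in MN1 cells (median -0.82). Celf2 reached 421 to 610 CPM in neurons with 3 MN1 reads.

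Genes linked to amyotrophic lateral sclerosis and frontotemporal dementia, the diseases of TDP-43, showed no common direction. Of 31 genes 30 passed the filter, with 13 higher in each cell type and a median of 0.06. Higher in MN1 cells were the actin regulator Pfn1 (medians 1213 and 289 CPM, 2.03 ± 0.10) and Ccnf (4.25), and higher in neurons were the tau gene Mapt (17.6 to 36.1 CPM against 868 to 1265 CPM, -5.34 ± 0.16), the tubulin Tuba4a (0 to 3.89 CPM against 260.5 to 492 CPM, -7.37 ± 0.26) and the motor Kif5a (-4.89). Tardbp, the mouse TDP-43 gene, stood in MN1 cells at 297 and 278 CPM with GFP, 392 and 433 CPM with hTDP-43, and 373 and 360 CPM with hTDP-43 A315T. In neurons it stood at 106 and 102 CPM in the non-transgenic libraries, 61.9 to 90.4 CPM with hTDP-43 and 81.3 to 98.3 CPM with hTDP-43 A315T. It was higher in MN1 cells by 1.96 ± 0.12 over all libraries and by 1.44 in the control libraries alone. Reads of the human transgene can align to the mouse gene where the sequences are identical, and their share was not tested.

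Camta1, Mid1ip1, Dennd4a and Pth1r, genes the study examined further in connection with TDP-43, varied within MN1 cells. Camta1, a calmodulin-binding transcription activator, ranged from 25.6 to 178 CPM in 5 MN1 libraries and stood at 572 CPM in hTDP-43 A315T replicate 2, against 186 to 284 CPM in neurons, and did not pass (-0.75 ± 0.43, adjusted p = 0.105). Mid1ip1, which regulates lipid synthesis, ranged from 157 to 920 CPM against 23.7 to 172.5 CPM (2.89 ± 0.34), and overlapped only through neuron hTDP-43 A315T replicate 1. Dennd4a, an exchange factor for Rab10, ranged from 72.8 to 403 CPM against 43.9 to 84.7 CPM (1.51 ± 0.29), with the 335 and 403 CPM of hTDP-43 A315T as its highest values. In control libraries alone its difference was 0.59 (adjusted p = 0.0602). The hormone receptor Pth1r ranged from 22.9 to 114 CPM against 4.98 to 79.7 CPM (1.29 ± 0.45), and did not pass without MN1 hTDP-43 A315T replicate 1 (0.96, adjusted p = 0.0646).

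Paralog pairs with 1 general and 1 neuronal member were compared within each library as the log2 ratio of footprints per kb of exon, neuronal over general member. Both members passed the filter in 28 of 30 pairs. The neuronal member was higher in neurons in 26 pairs, the general member in MN1 cells in 17 and both in 15. Over all genes tested, 44.5% were higher in neurons and 39.5% in MN1 cells, and the pairs were chosen as known general and neuronal forms. Some general members were instead higher in neurons, among them Atp2b1 (-2.97), Camk2d (-1.76), Myl12b (-1.34), Ppp3cc (-1.19), Rab3d (-1.07) and Prkaca (-0.67). The ratio was higher in every neuron library than in every MN1 library in 27 pairs. For the vesicle SNAREs Vamp2 and Vamp3 the median ratio was -1.48 in MN1 cells and 7.77 in neurons, and for the tubulins Tubb4a and Tubb6 it was -6.20 and 7.16. For the splicing factors Ptbp2 and Ptbp1 it was -5.30 and 2.83.

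Translation factors and 2 ribosomal proteins were among the pairs. Eif4a2 and Eif4a1, helicases of the initiation complex, had a median ratio of -3.98 in MN1 cells and 0.71 in neurons. For Eef1a2 and Eef1a1, forms of elongation factor 1A, it was -2.24 and 0.02. Exons of Eif4a1, Eif4a2 and Eef1a1 overlap another gene. These ratios are therefore read for their shift between cell types and not as relative levels of the 2 forms. Rps4l, a copy of the ribosomal protein gene Rps4x that is annotated as a transcribed processed pseudogene, had 12.4 to 41.7 CPM in neurons and no MN1 read, at least 35.1-fold higher in neurons, whereas Rps4x was higher in MN1 cells (2.33 ± 0.13). In the other ribosomal pair Rpl22 was higher in MN1 cells (2.57 ± 0.14), and Rpl22l1, listed as the neuronal member, did not pass (-0.32 ± 0.26, adjusted p = 0.249). Near-identical sequence makes the division of reads between these copies uncertain. The exception was Myl6b and Myl12b, myosin light chains that were listed as a pair. Their ratio overlapped, with medians of -1.95 in neurons and -1.96 in MN1 cells, and both genes were higher in neurons (-1.655 and -1.341).

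**Figure D5:**
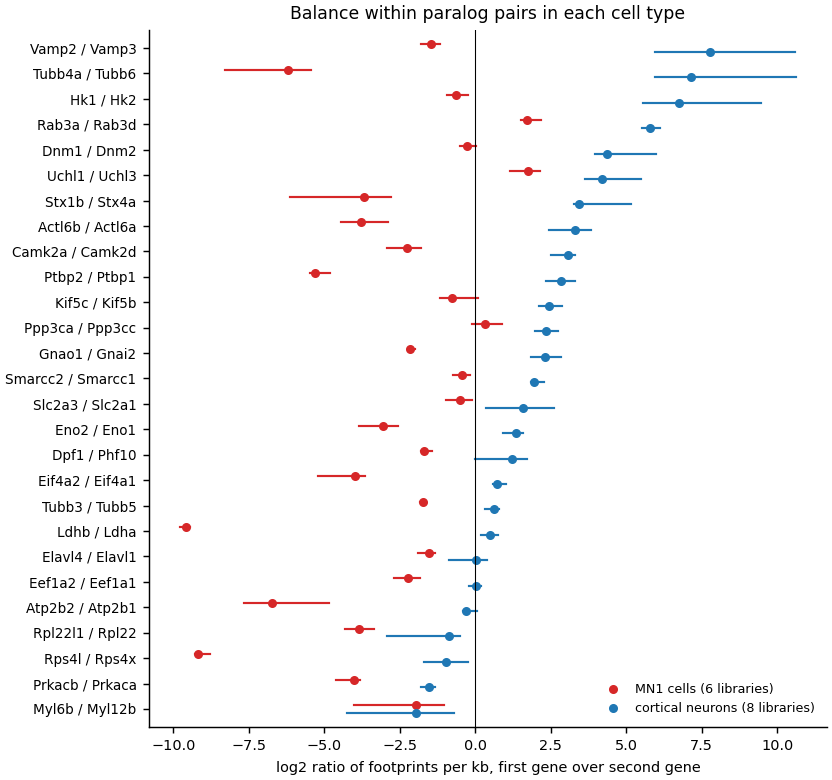
Log2 ratio of footprints per kb of exon between the members of 27 of the 28 paralog pairs (first gene neuronal, second gene general, 0.5 CPM added), with medians as points and the range over the 6 MN1 (red) or 8 neuron (blue) libraries as lines. In 26 pairs shown the neuron range lies above the MN1 range, and in Myl6b and Myl12b the ranges overlap, and wide lines mark pairs with a member near zero.

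By a further rule, the 10 largest differences toward each cell type were taken from protein-coding genes that exceeded the 2-fold threshold, held at least 10 reads in all in each cell type and averaged at least 20 CPM in the higher one. Genes with fewer reads in the lower cell type, such as Phox2a, Ccna2, Reln and Grin2b above, differed by more than some of them and are not among these. Toward MN1 cells they were, beside Hist1h1b, Ube2c, Hspb8, Prph and Top2a, the actin-binding protein Tagln2 (763 to 944 CPM against 0 to 9.11 CPM, 8.43 ± 0.27), Igfbp7 (7.95 ± 0.24), Id1, an inhibitor of differentiation factors (273 to 309 CPM against 0 to 9.97 CPM, 7.68 ± 0.20), the tetraspanin Cd9 (7.44 ± 0.20) and the mitochondrial carrier Ucp2 (7.43 ± 0.24). Toward neurons they were, beside Camk2b and Gria2, the transporter Slc22a17 (-8.61 ± 0.24), Ndrg4 (4.27 to 10.6 CPM against 1510 to 2194 CPM, -8.12 ± 0.18), the kinase Dclk1 (-7.83 ± 0.26), the sodium pump subunit Atp1b1 (4.86 to 15.7 CPM against 1766 to 2346 CPM, -7.82 ± 0.20), the brain creatine kinase Ckb (-7.73 ± 0.23), and the adhesion proteins Negr1 and Cadm3 and the microtubule regulator Stmn2, a known TDP-43 target in human neurons (each -7.64).

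The protein-coding genes of highest level without a read in the other cell type were also taken by rule. In neurons these were the membrane glycoprotein Gpm6a (chromosome 8, 54954728 to 55060877), with 2226 to 2695 CPM and at least 3424-fold higher, Nell2 (613 to 973 CPM, at least 1171-fold), the actin-sequestering peptide Tmsb4x (657 to 963 CPM, at least 1106-fold), Vsnl1 (545 to 944 CPM, at least 1082-fold) and Sst. In MN1 cells they were Sohlh2, a transcription factor of germ cells (138 to 178 CPM, at least 487-fold), Gchfr (64.1 to 120 CPM, at least 255-fold), Tex101, a germ cell surface protein (37.0 to 39.9 CPM in replicate 1 and 122.8 to 143 CPM in replicate 2, at least 231-fold), Hs3st6 (54.9 to 104 CPM, at least 225-fold) and the spindle protein Spdl1 (47.7 to 67.6 CPM, at least 192-fold). Among protein-coding genes, the highest read density per kb of exon in both cell types was on Yipf1 (on average 6897 RPKM in MN1 cells and 4259 RPKM in neurons), followed by Dact3 and Actb in MN1 cells. Yipf1, Dact3 and Lars2 varied widely between libraries, Yipf1 from 14570 to 80630 CPM within MN1 cells, and are 3 of the 6 genes that exceeded 1% of the reads. The other 3 do not encode proteins and are annotated as an antisense RNA (Gm14236), an unclassified TEC entry (Gm37194) and an rRNA (CT010467.1). Gm14236 reached 36650 RPKM on average in MN1 cells and 17430 RPKM in neurons, Gm37194 5518 and 15120 RPKM, and CT010467.1 3428 and 5653 RPKM. Whether the reads on these 6 genes came from ribosomes on their own transcripts cannot be told from the counts, so their densities are not read as translation.

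Total mRNA of the same cultures was compared in the same way. In total mRNA 40.0% of 11818 genes were higher in MN1 cells and 43.4% in neurons. Mitosis genes were higher in MN1 cells at 32 genes, with a median of 5.55 against 6.74 in footprints, and replication genes at 35, with 4.76 against 4.70. Receptors for glutamate and GABA were higher in neurons at 34, with -7.32 against -7.75, and synaptic vesicle genes at 29, with -4.40 against -4.39. Of the histones 28 were called higher in MN1 cells in total mRNA and 1 in neurons. Total mRNA was selected by its poly(A) tail, which replication-dependent histone mRNAs lack. The footprints and the total mRNA of a gene were each compared between the cell types, and the difference of their 2 changes was not tested.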

How the data were processed

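Per the labels and the study's methods, the authors trimmed reads with cutadapt (1.8.1), removed reads matching annotated non-coding RNAs with Bowtie2, aligned to GRCm38 with TopHat2 and deposited raw counts of uniquely mapped reads over exons of Ensembl genes from featureCounts (1.4.4), as the file headers record, with no strand setting. The 14 footprint libraries listed 45513 genes each, and 0 pairs of libraries held identical values. Whether replicates were separate transfections or animals is not given for every library, so p-values measure the spread between these libraries.

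From the deposited counts, genes passing edgeR's filterByExpr (minimum count 10, minimum total count 15, grouped by cell type) were tested for MN1 cells against neurons with TMM scaling and the quasi-likelihood test (edgeR 4.0.16, limma 3.58.1, R 4.3.3), Benjamini-Hochberg adjusted at 0.05 over all genes tested, and with glmTreat against a 2-fold change. Every adjusted p given is from edgeR. Total mRNA was fitted separately. The method was tested on simulated data of 9299 genes, where 26% of 2-fold and 93% of 4-fold changes were recovered with 4 false calls. There 100 genes were changed at each size and the rest left alike, with a wider spread between libraries than in these data. Most genes differed in these data, so the simulated rates do not describe this comparison. Ratios for genes with 1 to 3 reads in a cell type are of pooled reads, with exact 95% intervals that cover counting error only. Promoters came from RefSeq. Gene positions are from GENCODE M21, which held 44671 of the listed genes, and exons of 19.6% of the genes overlap another gene. Single genes were named by rule: the 10 largest changes toward each cell type among protein-coding genes past the 2-fold test with at least 10 reads summed over each cell type and a mean of at least 20 CPM in the higher one, the 5 highest genes without a read in the other, the most abundant and most changed members of each list, the paralog pairs, 5 genes of the study and the 3 densest protein-coding genes per cell type. Members that went against their list, markers and the non-coding genes above 1% of reads were named after their values were seen. The comparison and the lists were chosen with earlier results of these data known. Some genes of these lists are not reported here. Alternatives covered scaling, filtering, DESeq2 (1.42.0), covariates, dates, genotypes and left-out libraries.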

Additional observations from a re-analysis of the deposited data

Results flagged for a closer look

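Each value here lay apart from the other libraries of its cell type by a gap test at the 95% level. Chance gives about 1 in 20 groups where values are normally distributed, and 36 of 401 groups tested were found. Gene levels near zero are not so distributed, and a gene with reads in only 1 library of a cell type is always flagged. The rate of 1 in 20 therefore does not hold here and the number found cannot be set against it. The cause was not tested for any of them.

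Among neuron libraries, hTDP-43 A315T replicate 1 stood alone for Mid1ip1 (172.5 CPM, the others at most 50.2 CPM), Pth1r (79.7 CPM, the others at most 13.3 CPM), Mcm7 (667 CPM, the others at most 220.2 CPM), Ucp2 (3.62 CPM), Ccnb2 (2.72 CPM) and the share of reads on replication genes (0.1095%). Neuron hTDP-43 A315T replicate 3 was highest for Asns (603 CPM), Mapt (1265 CPM), Tubb5 (3686 CPM) and Phgdh (41.7 CPM).

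Neuron hTDP-43 A315T replicate 2 held the highest values of Gata2 (2.18 CPM), Hand2 (2.18 CPM) and Rpl39l (2.18 CPM), which are single reads for Gata2 and Rpl39l. Neuron hTDP-43 replicate 2 was lowest for Rps21 (129.6 CPM) and Myl6b (4.98 CPM) and highest for Id1 (9.97 CPM) and Psmb8 (4.98 CPM). The shallowest library, neuron hTDP-43 replicate 3, was lowest for Cdkn1b (49.5 CPM), Ier2 (0 CPM) and the share of cell cycle exit genes (0.0277%) and highest for Ccnb1 (6.19 CPM). Neuron hTDP-43 replicate 1 was highest for the share of glycolysis genes (0.771%). Neuron non-transgenic replicate 3 was lowest for Hk1 (349.8 CPM) and highest for Vamp3 (14.6 CPM), and non-transgenic replicate 2 was highest for Atic (89.4 CPM).

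Among MN1 libraries, hTDP-43 A315T replicate 2 was highest for Camta1 (572 CPM, the others at most 178 CPM), Igfbp7 (522.5 CPM), Vldlr (1.76 CPM) and Egr4 (1.76 CPM). MN1 hTDP-43 replicate 2 was lowest for Ube2c (422 CPM) and highest for Negr1 (8.33 CPM) and Slc1a2 (5.55 CPM). The only MN1 read of Grin2b (1.42 CPM) was in hTDP-43 replicate 1, that of Egr3 (0.972 CPM) in GFP replicate 1, and those of Dcx (1.04 CPM) and Dnajc6 (1.04 CPM) in GFP replicate 2.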

How the results depend on the processing

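The counts of genes called in all, in each direction and over 2-fold stayed within 1.5 times of the values reported under all 147 alternative values computed. Leaving out 1 library in turn gave 7586 to 8334 called genes, 3489 to 4138 higher in MN1 cells, 3876 to 4566 higher in neurons, and over 2-fold 4754 to 5305, 1988 to 2428 and 2641 to 3148. DESeq2 called 10123 of 15321 genes, no filter on low counts gave 11274 of 22853, and control, hTDP-43 and hTDP-43 A315T cultures alone gave 7210, 5569 and 7534. Replicate numbers did not pair the cell types (mean r of deviations 0.046 across cell types for the same number, -0.028 to 0.149), and a replicate block gave 8005 called genes. Inside a cell type, where a number marks a shared date, same-numbered libraries averaged -0.013 (-0.197 to 0.443) and others -0.204, and the correlation within a date estimated by limma was 0.161.

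The median change of all genes, -0.12 as reported, was 0.13 with scaling by total reads and 0.16 with upper-quartile scaling, and MN1 cells then held 53.1% and 53.8% of the calls against 47.0%. Changes near zero are therefore relative to the scaling. The medians of cell cycle exit, glycolysis, chaperone and disease genes changed sign under some alternatives, and that of the list named Cell-matrix, integrin and YAP target genes fell from 2.60 to -0.57 with DESeq2, -0.68 without a filter and -0.53 with libraries summed per date, where more low genes were tested.

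Of 168 named genes called, 151 stayed past the threshold in the same direction under every alternative, and the others were Fgfr3, Pth1r, Actb, Vamp1, Mcm7, Eif5, Cars, Hars, Ebp, Insig1, Dennd4a, Yipf1, Dact3, Lars2, Gm14236, Gm37194 and CT010467.1. Without neuron hTDP-43 replicate 3, Eif5 (-0.22, adjusted p = 0.125) and Hars (-0.15, adjusted p = 0.211) did not pass. Genes that changed sign were among the 8 not called. Nfib gave 0.11 with total reads, 0.139 with upper-quartile scaling, 0.154 in hTDP-43 cultures and -0.232 to 0.007 without 1 library. Kdm1a gave 0.208 with total reads and 0.236 with upper-quartile scaling, which both passed, 0.047 and 0.062 with DESeq2 factors and DESeq2, 0.016 without the 6 most abundant genes, and -0.132 to 0.101 without 1 library. Tubb5 gave -0.023 with protein-coding genes only, -0.044 without the 2 shallowest neuron libraries and -0.03 to 0.195 without 1 library. In hTDP-43 A315T cultures alone Asns gave -0.024, Camta1 0.208 and Rpl22l1 0.002.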
